A study of Mus musculus with 26 samples.

Results

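The regions described here are stretches of open chromatin that lie inside genes but away from the place where transcription begins, in mesenchyme of the fetal mouse reproductive tract. They were found by ATAC-seq, in which a transposase cuts DNA that is not wrapped tightly in chromatin. The deposited list of 71040 peaks covers all ATAC-seq samples together. A peak was taken when it lay on chromosomes 1 to 19 or X, had no base within 1 kb of a gene start and overlapped a gene span by at least 1 base. Spans and starts came from the coordinates of every gene row in the fetal RNA count table. The rule took 28761 of the 70984 peaks on these chromosomes, or 40.52% (95% Wilson interval 40.16 to 40.88%). Of the rest, 16347 peaks lay at gene starts and 25876 outside genes. The rule used positions alone and no RNA count. The peaks came from the same kinds of fetal cells as the RNA, so holding one need not be independent of a gene's RNA.

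The mice carried Gli1-CreER with Rosa-Tomato, or Amhr2-Cre with Rosa-Tomato. CreER is a recombinase that acts only in the presence of tamoxifen, and Tomato is the red fluorescent protein it switches on. Dams received 1 mg of tamoxifen on E12.5 and E13.5 (days of embryonic development), so the Gli1+ cells are those in which the Gli1 promoter was active around that time, and their descendants, while Amhr2+ cells are those in which the Amhr2 promoter has driven Cre. Tissue was dissociated with TrypLE and labelled cells were sorted. RNA-seq was available for Gli1+ cells of female (XX) and male (XY) mesonephroi at E14.5 and at E16.5, 3 libraries in each of the 4 groups, and for Amhr2+ and Gli1+ cells of the E19.5 uterus, 3 libraries each. The ATAC-seq samples numbered 8, with 2 for each fetal group, all of Gli1+ cells. Their list carries no sample, height or score, so no peak can be assigned to a sex or an age, and every comparison between groups below is of RNA.

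The mesonephros holds the Wolffian duct, which forms the male tract, and the Müllerian duct, which forms the female tract. Its mesenchyme signals to both ducts, and androgens and anti-Müllerian hormone from the testis act through it. Open regions inside introns are often enhancers or sites where CTCF, the protein that anchors chromatin loops, is bound, and an enhancer in an intron can act on the gene around it or on another gene. Open chromatin marks access for proteins and does not say which protein is bound.

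Short stretches of the regions are shown first, because the results on RNA turn on letters found in them. Peaks were searched on both strands for short sequences known as binding sites. Steroid receptors, among them the glucocorticoid and progesterone receptors, share a palindrome of GNACA and TGTNC set 3 bases apart, in which N is any base. The following stretches, all in introns, hold these letters in peaks of genes named by the fixed rule; capitals mark the match. They are written 5′ to 3′ on the + strand of mm10 (GRCm38).
Nalcn, chr14:123528187-123528286: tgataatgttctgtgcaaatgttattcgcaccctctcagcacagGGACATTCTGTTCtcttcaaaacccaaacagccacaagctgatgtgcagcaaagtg
Zbtb16, chr9:48723660-48723759: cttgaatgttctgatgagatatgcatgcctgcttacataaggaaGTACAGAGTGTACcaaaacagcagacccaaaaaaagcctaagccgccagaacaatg
Zbtb16, chr9:48737558-48737657: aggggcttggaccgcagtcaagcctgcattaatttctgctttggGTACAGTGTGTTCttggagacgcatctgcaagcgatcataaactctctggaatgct
Zbtb16, chr9:48740225-48740324: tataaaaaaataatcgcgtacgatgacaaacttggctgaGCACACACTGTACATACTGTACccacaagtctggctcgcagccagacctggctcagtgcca
Smoc1, chr12:81078423-81078522: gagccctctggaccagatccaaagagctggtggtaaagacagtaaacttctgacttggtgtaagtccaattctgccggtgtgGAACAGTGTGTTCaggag
Ntrk2, chr13:59057019-59057118: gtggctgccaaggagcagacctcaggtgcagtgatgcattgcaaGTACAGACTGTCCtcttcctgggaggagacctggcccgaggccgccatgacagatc
Tshz2, chr2:169821086-169821185: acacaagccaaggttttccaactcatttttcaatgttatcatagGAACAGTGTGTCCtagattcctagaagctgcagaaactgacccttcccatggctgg
Foxp1, chr6:98992951-98993050: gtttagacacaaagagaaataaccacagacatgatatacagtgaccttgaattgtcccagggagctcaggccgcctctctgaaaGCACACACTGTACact
Zbtb16 encodes a zinc finger repressor, and 3 of its peaks hold the palindrome, at 95.9, 98.6 and 112.0 kb from its start. In the peak nearest to the start of the 3, the capitals cover 2 overlapping matches. Nalcn encodes a sodium leak channel, Smoc1 a secreted calcium-binding protein of the matrix, and Ntrk2 a receptor of brain-derived neurotrophic factor. Tshz2 and Foxp1 encode transcription factors of the zinc finger and forkhead classes.

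Gli factors, the transcription factors at the end of the hedgehog pathway, bind GACCACCCA. CTCF is represented by a core of CCNNNAG followed directly by NNGGC. Myrip, a linker between a small GTPase and a myosin motor, has 5 peaks inside it, and 4 of them hold the core. It was chosen for display after its values were seen.
Myrip, chr9:120345895-120345994: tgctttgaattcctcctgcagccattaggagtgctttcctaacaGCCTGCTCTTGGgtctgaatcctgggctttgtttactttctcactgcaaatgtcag
Myrip, chr9:120415619-120415718: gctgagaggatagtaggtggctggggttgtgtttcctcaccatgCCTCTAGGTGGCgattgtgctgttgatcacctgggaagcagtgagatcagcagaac
Myrip, chr9:120425903-120425998: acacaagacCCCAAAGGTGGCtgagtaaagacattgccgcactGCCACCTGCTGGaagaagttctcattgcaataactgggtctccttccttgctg
Myrip, chr9:120433999-120434098: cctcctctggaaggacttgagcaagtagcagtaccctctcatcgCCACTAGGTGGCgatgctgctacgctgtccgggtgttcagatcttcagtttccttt
The peak at 120425903 to 120425998 holds 2 matches, on opposite strands. The peak that starts at 120415619 also holds 2, of which 1 falls in the stretch shown.

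Whole-series values that touch the results are few. Fetal libraries held totals of 23382983 to 64602477 counts and uterine libraries 28709191 to 37541045, and 3 counts, taken as the floor of detection, correspond to 0.0464 to 0.128 CPM in a fetal library. The sex-check genes followed the labels at both ages. Levels are given as CPM, counts scaled to library size by the TMM method, which depend on transcript length and so are compared between groups and not between genes. In sorted bulk RNA, fewer cells of a kind and less RNA per cell cannot be told apart.

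The regions were sparse, narrow and moderately rich in G and C. They occurred at 26.34 per Mb of gene interior, against 18.57 per Mb outside genes and 221 per Mb within 1 kb of gene starts. Their median width was 187 bases (quartiles 116 and 341, range 50 to 1825), close to the 198 bases of peaks outside genes and well under the 492 bases of peaks at starts. The median content of G or C was 50%, against 42.56% over the gene interior as a whole. Peaks at starts stood at 63.79%. The pair CG, which is rare in most of the mouse genome and kept in the islands at many promoters, had a median ratio of observed to expected of 0.238 in the regions, 0.232 outside genes and 0.757 at starts. Repeats covered a mean of 8.50% of a region, against 28.22% of the gene interior, and the means were 8.98% for peaks outside genes and 6.01% for peaks at starts. The medians of repeat cover were 1.754%, 3.755% and 3.495% in that order, so by this measure peaks outside genes and at starts were the more alike. In density, width and base composition the regions were closer to peaks outside genes than to peaks at starts, as the plot of density, width and base composition shows.

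**Figure D1:**
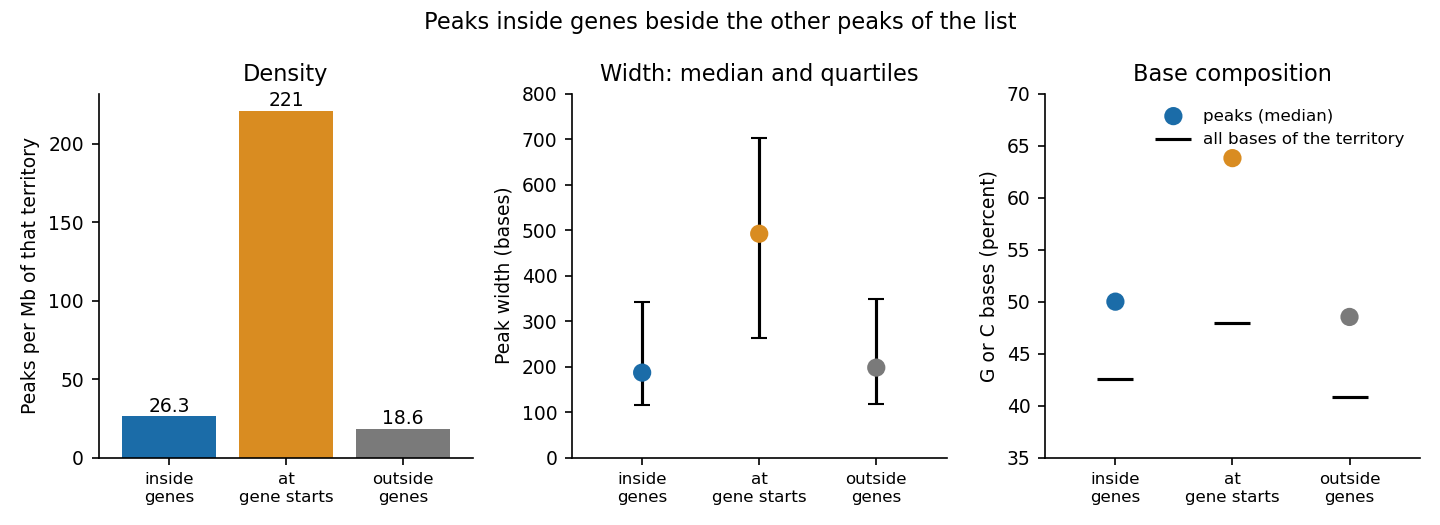
Density in peaks per Mb, width in bases (median with quartiles) and percent G or C (median of peaks, with a line for all bases of the same territory) for peaks inside genes, at gene starts and outside genes. Peaks inside genes lie at 26.34 per Mb and 50% G or C, near those outside genes and below those at starts.

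Most of the regions were intronic. The midpoint fell in an intron for 25108 peaks, or 87.3% (95% Wilson interval 86.91 to 87.68%), where introns made up 91.06% of the bases. Coding exons held 1123 midpoints (3.91%, against 2.92% of bases), untranslated regions (UTRs) 1405 (4.89%, against 3.03%) and exons of non-coding transcripts 1055 (3.67%, against 2.99%). Peaks per Mb rose from 25.25 in introns to 35.25 in coding exons and 42.52 in UTRs. First introns held 28.94 peaks per Mb and later introns 25.32. Peaks with a midpoint in a coding exon had a median of 60.58% G or C, against 49.48% in introns. Intervals on shares cover counting error only.

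The regions reached far into their genes. The median distance from the gene start was 46180 bases, and 30.31% of the links between a peak and a gene spanned over 100 kb. Density lay between 26.9 and 29.78 links per Mb in each of the 5 distance classes from 1 to 200 kb, without a steady order, and was 22.96 at 200 to 500 kb. Neighbouring peaks of a gene were separated by a median of 11710 bases. Of the peaks, 27032 lay in a single gene row, 1678 in 2 rows and 51 in 3 or more, so a minority cannot be given to 1 gene.

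Both the rule and the annotation leave a fringe near starts. GENCODE vM21 transcripts, which include starts inside the spans of the count table, placed 3488 of the peaks (12.13%) within 1 kb of some transcript start. These had a median of 57.19% G or C and a CG ratio of 0.406, and 63.33% of them were intronic. The other 25273 stood at 49.38%, 0.226 and 90.61%. Just inside the limit of the rule, 951 peaks at 1 to 1.5 kb from a start had a median of 56.2% G or C, and just outside it 2106 peaks at 0.5 to 1 kb had 57.71%.

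Chromosome X carried few of the regions. Its genes held 495 of them, 10.76 per Mb of gene interior, against 27.02 per Mb on the autosomes. Autosomes ranged from 23.32 per Mb on chromosome 14 to 32.21 on chromosome 11. X took 1.72% of the peaks inside genes, 2.45% of those outside and 3.04% of those at starts. Female cells have 2 copies of X and male cells 1, and the list pools both.

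The letters of several factors were much more frequent in the regions than nearby. Shares refer to the 200 bases around each peak's midpoint, which extend past the edges of a narrower peak. The comparison is with 50011 windows of the same length moved by 5 kb each way, which had a median of 45.05% G or C. They were kept where they lay inside a gene and met no peak, and the gene could be another than that of the peak. The CTCF core stood in 13.86% of the peaks and 2.81% of the moved windows, a ratio of 4.94. The steroid receptor palindrome stood in 508 peaks, or 1.77%, against 0.336%, a ratio of 5.26. The palindrome of nuclear factor I (NFI, TTGGC and GCCAA set 5 bases apart), a factor of mesenchyme and many other tissues, stood in 49 peaks against 6 of the moved windows, a ratio of 14.2 on small counts.

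Other letters had lower ratios. The oestrogen receptor palindrome, GGTCA and TGACC set 3 bases apart, stood in 48 peaks and 17 moved windows (ratio 4.91), and the E-box ACAGCTGT of Tcf21 and Hand factors in 2.0% against 0.662% (3.02). The ratio was 1.98 for the Gli letters (0.316% against 0.16%), 1.74 for CATTCCA of TEAD, the factors that act with YAP, and 1.16 for TGANTCA of AP-1. Forkhead letters TGTTTAC had a ratio of 1.18. Homeobox letters TAATTA were rarer in the peaks than in the moved windows, at 4.38% against 5.66%, as were those of Runx (TGTGGTT, 4.27% against 4.83%) and TCF/LEF (ATCAAAG, 3.21% against 3.47%). A direct repeat of AGGTCA set 1 base apart, bound by COUP-TF and RXR, stood in 9 peaks and 32 moved windows, a ratio of 0.489, the lowest of the 15 sets. Base composition and repeat cover were not matched between peaks and moved windows, and their part in these ratios was not tested. Repeats covered a mean of 24.47% at the moved positions and 8.50% in the peaks.

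Several letters differed in frequency between peaks at gene starts and peaks inside genes. GGGGCGGGG of Sp and Klf factors stood in 12.59% of them against 1.7% of the peaks inside genes, and CCGGAAGT of ETS factors in 3.85% against 0.365%. The steroid receptor palindrome went the other way, in 0.471% of peaks at starts against 1.77% inside genes. Peaks outside genes held it in 1.65%, close to the share inside genes. The CTCF core differed less, at 11.21% of peaks at starts, 13.86% inside genes and 13.67% outside.

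**Figure D2:**
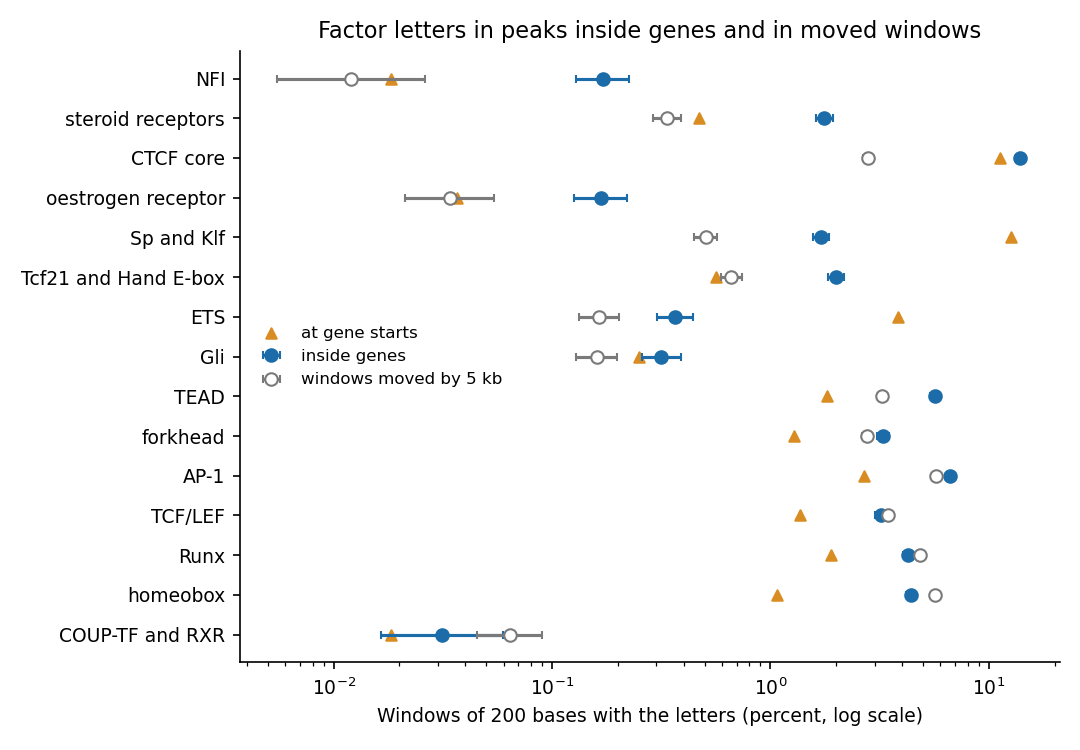
Percent of 200-base windows (log scale) that hold the letters of each factor. Shown are peaks inside genes, windows moved by 5 kb that also lay inside genes, and peaks at gene starts. Bars are 95% Wilson intervals for the first 2. Letters of NFI, steroid receptors and CTCF are well to the right of their moved windows, those of the homeobox to the left.

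The CTCF core belonged mainly to narrow regions. It stood in 19.8% of the 4948 peaks of 50 to 99 bases and 23.7% of the 6253 peaks of 100 to 149 bases. It fell through 14.6% at 150 to 232 bases and 6.72% at 233 to 399 to 4.54% of the 5242 peaks of 400 bases or more. The Sp and Klf letters went the opposite way, from 1.29% of the narrowest to 3.26% of the widest. The AP-1 letters stayed between 5.84% and 7.48% in every width class, and the steroid receptor letters between 1.2% and 2.34%. The search window was 200 bases in every class, so the number of bases searched was the same. The core was also more frequent in coding exons (20%) and UTRs (19.1%) than in introns (13.2%).

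**Figure D3:**
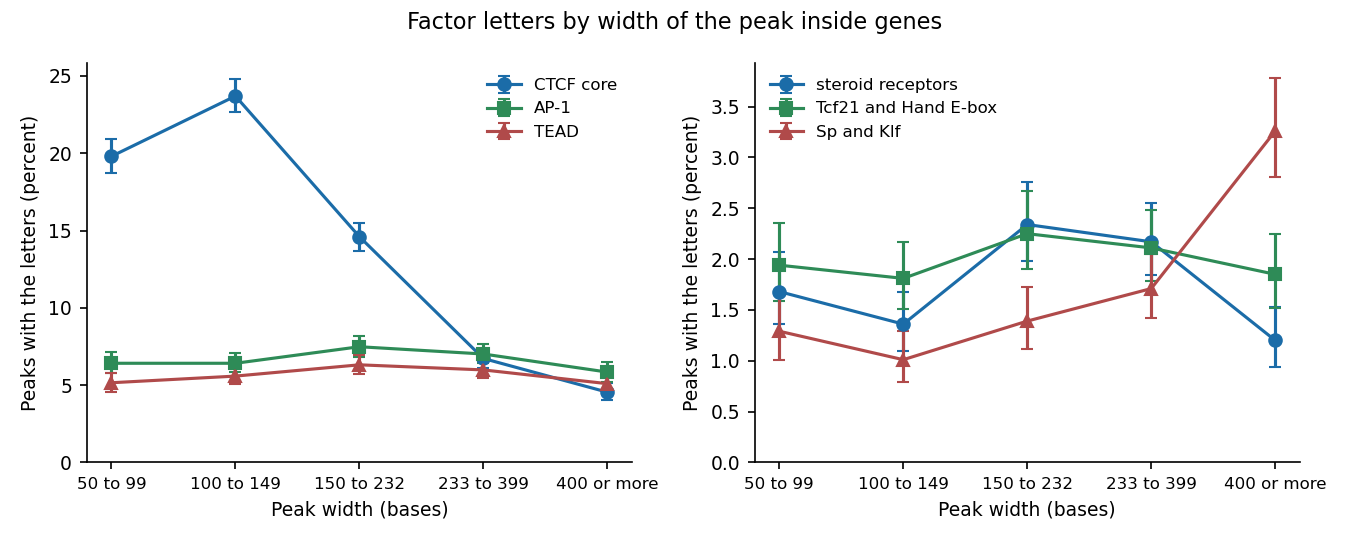
Percent of peaks inside genes that hold 6 sets of letters, by peak width in bases, with 95% Wilson intervals. The CTCF core is most frequent at 100 to 149 bases (23.7%) and least at 400 bases or more (4.54%), while the Sp and Klf letters are most frequent in the widest class.

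The regions fell in 10275 of the 41442 gene rows. A single peak was held by 5012 rows, 5 or more by 1740, 10 or more by 538 and 20 or more by 101. The number of peaks followed the span of the gene, with a Spearman correlation of 0.636 across genes, and was weakly related to the gene's level (0.149). A peak was held by 29.4% of tested genes under 1 CPM and by 48.0% of those over 50 CPM, which were also longer. Genes that share a locus share peaks, so these are descriptions across genes.

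Among genes tested for RNA, Fgfr2, a receptor of fibroblast growth factors, was assigned most peaks, 114. Its span in the table is 2.96 Mb and overlaps 59 other rows, and only 49 of the peaks lay in no other row. Rbms3, which encodes an RNA-binding protein, held 57 across 1057.0 kb, none of them shared with another row. The next were Macrod2 (46), Lrmda (44) and Dnm3 (41), and then Erc2, Pde4d and Tenm4 with 40 each. These long genes differed in RNA. Rbms3 lay between 333 and 418 CPM in all 12 fetal libraries. Lrmda lay between 0.159 and 1.22 CPM, near the floor of 3 counts, in spite of its 44 peaks. Tenm4, a teneurin of the cell surface, was higher in females, at 620, 618 and 545 CPM in E16.5 females and 269, 231 and 200 CPM in E16.5 males, a log2 difference of 1.35 (SE 0.107, adjusted p 1.83e-07). The sexes did not overlap.

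Firre had the highest density among tested genes with 5 or more peaks and a span of at least 20 kb. It encodes a long non-coding RNA of the X chromosome (50563125 to 50635066) known for contacts between chromosomes. Its 71.94 kb held 21 peaks, or 2.92 per 10 kb, all intronic and 11.9 to 68.6 kb from the start. The CTCF core was found in none of their 200-base windows. Its RNA stood between 103 and 152 CPM in the 12 fetal libraries, and the adjusted p of its sex and age comparisons lay between 0.0823 and 0.271. With the replicate number as a block, the adjusted p was 0.0341 for sex at E16.5 (log2 0.2) and 0.0319 for age in females (0.21). Firre is built of repeated units, and reads from near-identical copies cannot always be placed, so the separate peaks are uncertain. The densest genes after it were Smarcd3 (2.83 per 10 kb), a subunit of a chromatin remodelling complex, St6galnac6 (2.37), Loxl1 (2.36), a cross-linker of elastic fibres, and Lsp1 (2.35).

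Long genes without a region were rare. Of tested genes over 200 kb, 97.1% held at least 1 peak, against 83.8% of untested rows of that length. The longest tested genes with a mean of at least 10 CPM and no peak were Dach2 (538.9 kb) and Aff2 (507.7 kb), both on X, and then Lrfn5, Prex2 and Chchd3. The widest peak, of 1825 bases from 34864592 to 34866416 on chromosome 18, overlapped the end of Egr1, an immediate-early gene. The span of Egr1 ends at 34864984, and the midpoint of the peak lay in no GENCODE gene, so most of the peak is outside it. Egr1 varied widely between libraries of E16.5 males, at 1720, 5140 and 8010 CPM. Females of that age stood at 4770, 4170 and 6630 CPM, inside the male range.

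Genes that hold the regions differed between sexes and ages more often than genes that do not. At E16.5 a sex difference was called in 2726 of the 7323 tested holders (37.2%). Females had the higher level in 1311 (17.9%, against 13.2% of all tested genes) and males in 1415 (19.3%, against 14.1%). The share called was 27.3% over all 17858 tested genes and 20.5% in the 10535 without a peak. At E14.5 it was 729 holders (9.95%), against 6.28% over all genes and 3.72% without a peak. Of these, 303 were female-higher (4.14%, against 2.59% of all genes) and 426 male-higher (5.82%, against 3.69%). Calls are those of edgeR's quasi-likelihood test at a Benjamini-Hochberg adjusted p under 0.05. The E14.5 count fell when most of the E14.5 libraries were left out in turn. It was 386, 436 and 452 without female replicates 1, 2 and 3, and 467 and 382 without male replicates 2 and 3. Without male replicate 1 it kept within 1.5 times the reported count.

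Age gave the same order. In females 3407 holders (46.5%) changed from E14.5 to E16.5, against 39.6% over all genes. There 1776 rose (24.3%, against 21% of all genes) and 1631 fell (22.3%, against 18.6%). In males 2380 (32.5%) changed, against 23.3%, with 1327 up (18.1%, against 13.1%) and 1053 down (14.4%, against 10.2%). The difference between the sexes itself changed with age, tested as an interaction, in 1175 holders (16%), against 10% over all genes and 5.84% without a peak. The balance moved toward females in 535 (7.31%, against 4.66%) and toward males in 640 (8.74%, against 5.36%). These contrasts share libraries and are not independent of each other. Nothing in the labels says that libraries of a group came from separate animals, so the p-values measure the spread between these samples, which may be technical.

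The share called rose with the number of regions in the gene. For sex at E16.5 it was 20.5% with no peak, 30.9% with 1 to 2, 43.3% with 3 to 5, 53.5% with 6 to 10 and 53.1% with over 10. For the interaction it was 5.84%, 10.9%, 21.4%, 28.2% and 28.9%. Genes with more peaks were also longer, with a median span of 9.23 kb at no peak and 320 kb at over 10, and had higher counts, with medians of 11.3 and 42.5 CPM. The rise was also present among genes of similar span up to 200 kb. Among tested genes of 50 to 100 kb, the share for sex at E16.5 was 24.8% with no peak, 28.9% with 1 to 2, 43.4% with 3 to 5 and 53.2% with 6 to 10. Over 200 kb the order was less clear, since 46.2% of the 26 genes with no peak were called and 40.9% of those with 1 to 2.

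**Figure D4:**
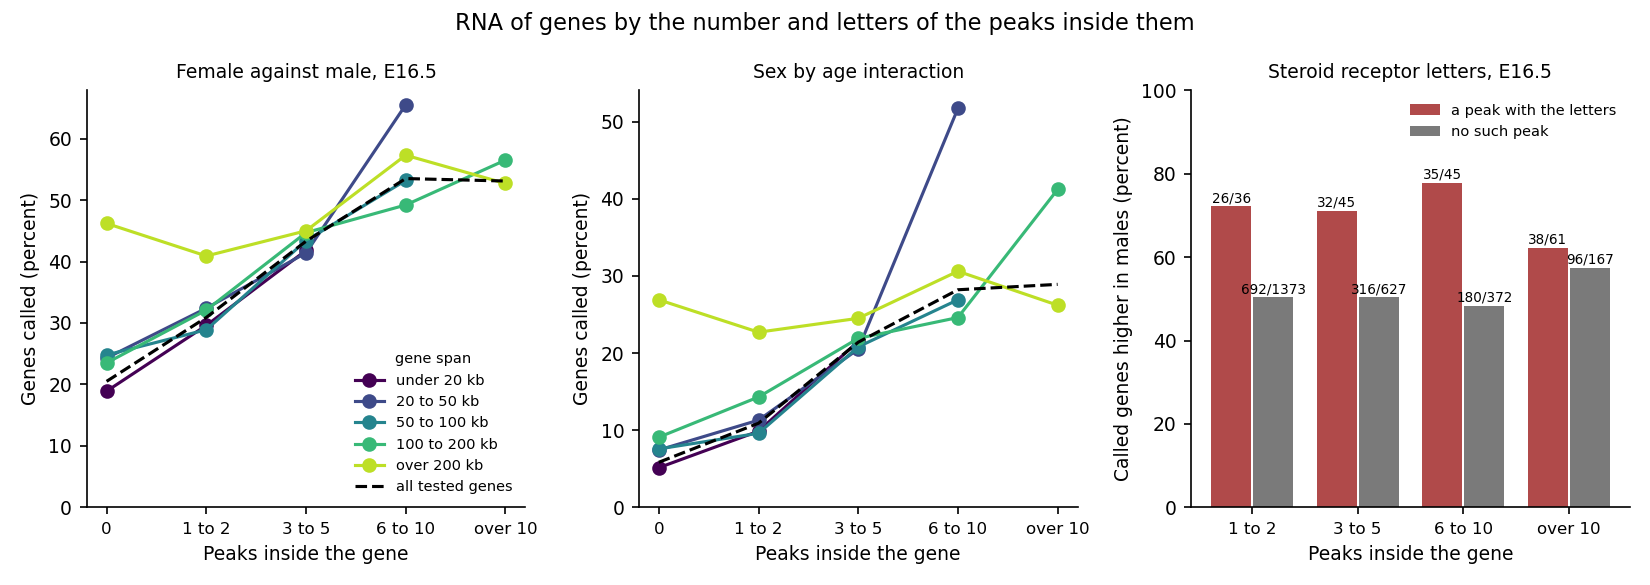
Left and middle: percent of tested genes called for sex at E16.5 and for the interaction, by number of peaks inside the gene, with 1 line for each class of gene span and a dashed line for all genes (points of under 20 genes left out). Right: percent of called genes that were higher in males at E16.5, for genes with and without the steroid receptor letters in a peak, with counts above the bars; 26 of 36 against 692 of 1373 at 1 to 2 peaks.

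Genes with the steroid receptor letters in a region leaned to males at E16.5. Of 396 tested genes with the palindrome in the 200-base window of a peak inside them, 131 were higher in males and 56 higher in females. That put 70.1% of their calls on the male side, against 51.9% for all holders. Over all genes, 14.1% were called higher in males and 13.2% higher in females. The contrast was picked out after 15 sets of letters had been looked at in 5 comparisons, so it carries no test, and the counts are a description. Their median log2 difference, female over male, was -0.09, against 0.01 for all holders, so the lean lies in the called genes more than in the set as a whole. The match shown for Foxp1 lies outside the window, and this gene is not among them.

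The lean was present in genes with few and with more peaks. Among genes with 1 to 2 peaks, 26 of 36 called genes with the letters were male-higher, against 692 of 1373 without them. The counts were 32 of 45 against 316 of 627 with 3 to 5 peaks, and 35 of 45 against 180 of 372 with 6 to 10. With over 10 peaks they were closer, 38 of 61 against 96 of 167. Over the fit as reported and 18 other settings, each library left out in turn among them, the male-higher genes numbered 112 to 138 and made up 68.0% to 71.6% of calls. At E14.5 the same genes gave 36 higher in males and 22 higher in females, a balance near the 426 and 303 of all holders. In males they rose with age in 120 cases and fell in 60, where 1327 of all holders rose and 1053 fell.

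The Gli letters gave the same side with fewer genes. Of 79 tested genes, 33 were higher in males and 12 in females at E16.5, with 29 to 38 male-higher over the same settings and a median log2 difference of -0.22. Other letters were closer to even. TEAD letters stood in 1134 tested genes, of which 294 were male-higher and 218 female-higher. Forkhead letters stood in 728 (181 and 156), AP-1 letters in 1299 (303 and 288) and the CTCF core in 2634 (529 and 485). Sp and Klf letters leaned to females, with 98 of 391 genes female-higher and 75 male-higher. The oestrogen receptor palindrome was split evenly, 10 and 10 of 43. Male-higher calls made up 14.1% of all tested genes and 19.3% of holders, and female-higher calls 13.2% and 17.9%. Genes with a given set of letters often held more peaks, a median of 5 for TEAD against 2 for all holders. They were also called more often in total, 45.1% for TEAD against 37.2%.

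Genes whose sequences are printed above show what lies behind those counts. Zbtb16 measured 1.09, 1.34 and 1.37 CPM in E14.5 males and 11.6, 12.1 and 13.9 CPM in E16.5 males. In females it measured 0.0668, 0.0398 and 0.181 CPM at E14.5 and 2.01, 1.97 and 2.8 CPM at E16.5. Every E16.5 male library lay above every other fetal library, and the E14.5 female libraries were at or near the floor of 3 counts. The log2 difference of females over males at E16.5 was -2.47 (SE 0.175, adjusted p 4.78e-08), and males rose with age by 3.28 (SE 0.187, adjusted p 6.72e-09). All 11 peaks of Zbtb16, on chromosome 9 from 48654297 to 48836222, were intronic, 49.2 to 157 kb from the start and 94 to 704 bases wide. The palindrome stood in the 200-base windows of 4 of them, in 1 case in the flank and not in the peak.

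Smoc1 followed the same course at a higher level. It measured 2.77, 2.11 and 3.48 CPM in E14.5 females, 12, 13.4 and 17.7 in E14.5 males, and 11.3, 17.6 and 16.8 in E16.5 females. E16.5 males stood at 78.7, 81.1 and 72.3 CPM, above all other fetal libraries. The log2 difference at E16.5 was -2.34 (SE 0.179, adjusted p 9.7e-07), and all 7 of its peaks were intronic. Smoc1 overlaps another gene row, and the fetal libraries came from a kit that does not keep strand, so reads of overlapping genes cannot be told apart.

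Nalcn fell with age in females. Its libraries stood at 32.2, 32.9 and 26.9 CPM in E14.5 females and 4.82, 5.17 and 4.6 CPM in E16.5 females. Males held 39.7, 34.8 and 38.2 CPM at E14.5 and 31.6, 47.9 and 45.7 CPM at E16.5. E16.5 females lay below all 9 other fetal libraries, which overlapped between groups, and the male ages did not differ beyond the threshold (0.15, adjusted p 0.429); without E16.5 male replicate 1 the male difference was 0.32 (adjusted p 0.0179). The fall with age in females was -2.66 on the log2 scale (SE 0.147, adjusted p 6.28e-09) and the difference between the sexes at E16.5 was -3.1 (SE 0.147, adjusted p 1.66e-09). It held 6 peaks, all intronic, 4.09 to 274 kb from its start.

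The letters also occurred in genes with smaller differences or with the other direction. Tenm4, described above, had the palindrome in the windows of 2 of its 40 peaks and was higher in females (log2 1.35, adjusted p 1.83e-07). Thra, with 1 of 5 peaks, was also higher in females (0.358, adjusted p 0.000126). Macrod2, with 2 of 46, was higher in males (-0.375, adjusted p 0.0255), a call lost under some of the other settings. Ntrk2, with the palindrome in 1 of its 13 peaks, was higher in females, at 276, 286 and 287 CPM against 173, 168 and 170 CPM in males at E16.5, a log2 difference of 0.74 (SE 0.0655, adjusted p 5.14e-07). Tshz2, with 18 peaks, all of them also inside another gene row, was higher in males at E16.5, at 53.1, 69.5 and 66.6 CPM against 45.0, 45.7 and 43.0 in females (log2 -0.5, adjusted p 0.00105). Foxp1, with 29 peaks, of which 15 also lie in another row, was higher in females, at 87.9, 101 and 101 CPM against 65.0, 67.8 and 79.3 (0.45, adjusted p 0.000927). In Ntrk2, Tshz2 and Foxp1 the E16.5 libraries of the sexes did not overlap.

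Other large differences at E16.5 were found among genes with 5 or more regions. Myh11, the myosin heavy chain of smooth muscle, measured 13, 17 and 16 CPM in E16.5 females and 215, 386 and 342 CPM in E16.5 males, with a log2 difference of -4.35 (SE 0.269, adjusted p 1.69e-06). Atp8a2, a lipid flippase, measured 0.416, 1.01 and 0.429 CPM in females and 24.0, 38.1 and 35.7 in males (-5.71, SE 0.343, adjusted p 1.57e-07). Neither pair of groups overlapped. Slc22a3, a transporter of organic cations with 5 peaks, was higher in males at both ages, with log2 differences of -2.06 at E14.5 and -3.19 at E16.5 (adjusted p 1.07e-06 and 1.66e-09).

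Other genes were highest in E16.5 females. Dpp10, a subunit of potassium channels with 5 peaks 104 to 468 kb from its start, stood at 30.4, 29.3 and 34.1 CPM in E16.5 females and between 3.18 and 5.25 CPM in the 9 other fetal libraries. Its log2 difference at E16.5 was 3.05 (SE 0.115, adjusted p 7.46e-11). Epha6, a receptor of ephrins with 16 intronic peaks, stood at 32.9, 33.2 and 34.7 CPM there and between 4.55 and 8.15 CPM in the 9 others (2.67, SE 0.133, adjusted p 1.13e-09). Slc26a7, an anion transporter, stood at 29.5, 37.0 and 43.7 CPM there and between 1.27 and 9.34 CPM in the 9 others (2.88, SE 0.253, adjusted p 4.32e-06). In all 3 genes the E16.5 female libraries lay above every other fetal library.

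**Figure D5:**
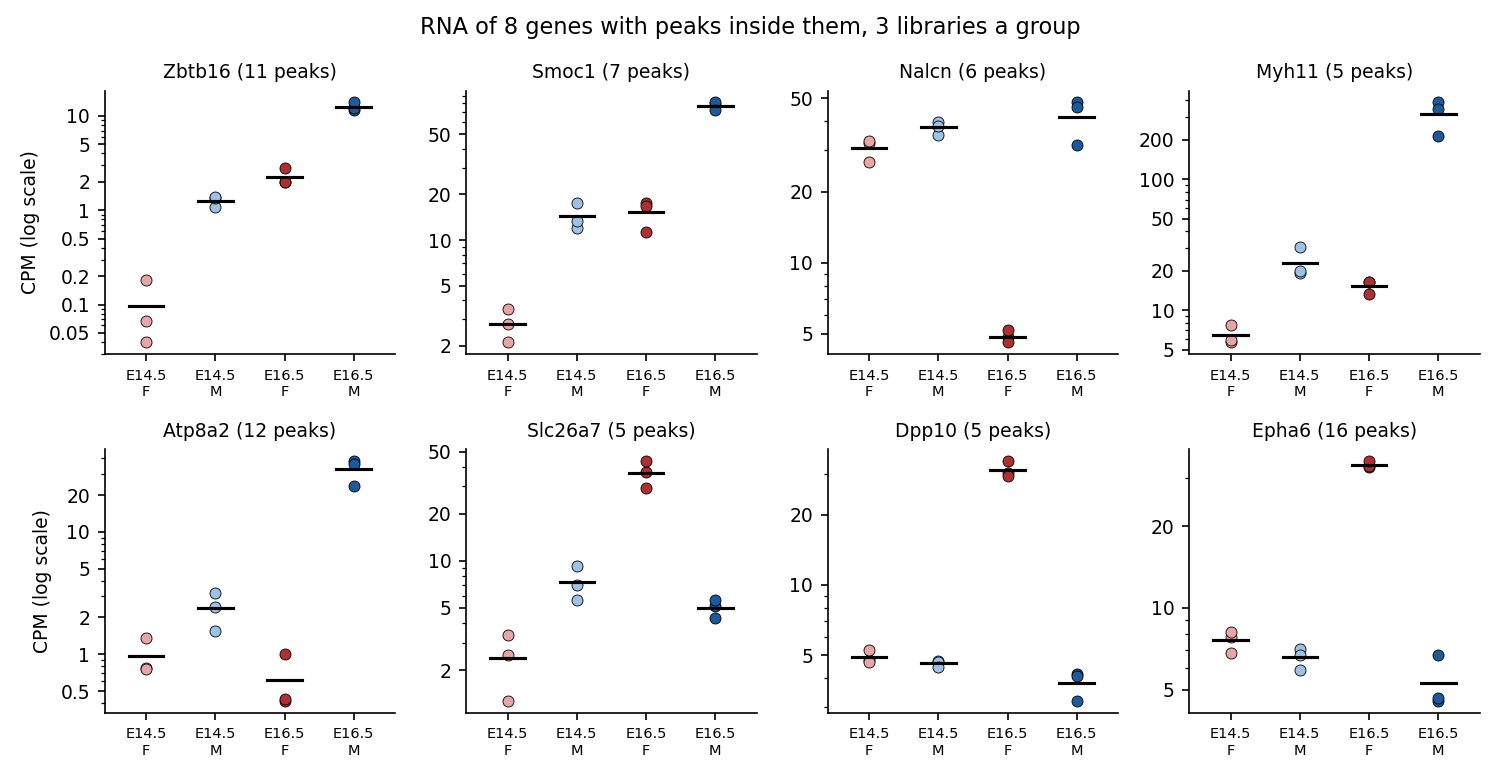
RNA level in CPM (log scale) of 8 genes with 5 or more peaks inside them, each point 1 library and each bar the mean of 3, for females (F) and males (M) at E14.5 and E16.5. Zbtb16, Smoc1, Myh11 and Atp8a2 are highest in E16.5 males, Slc26a7, Dpp10 and Epha6 in E16.5 females, and Nalcn is low only in E16.5 females.

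Age moved further genes in both sexes. Myrip, with the 4 CTCF core peaks shown above, measured 5.28, 6.81 and 5.36 CPM in E14.5 females and 53.2, 59.4 and 66.2 CPM in E16.5 females, a rise of 3.36 on the log2 scale (SE 0.119, adjusted p 8.93e-11). In males it measured 6.86, 7.2 and 7.54 CPM and then 18.5, 20.9 and 16.9 CPM, a rise of 1.37 (SE 0.112, adjusted p 2.7e-07). The ages did not overlap in either sex. Col6a4, a chain of collagen VI with 9 peaks, rose by 3.65 in females and 2.72 in males (adjusted p 7.28e-10 and 1.31e-08). Hmga2, a chromatin protein of proliferating embryonic cells with 9 peaks (4 of them shared with another row), fell by 2.48 in females and by 2.84 in males (adjusted p 3.17e-07 and 1.85e-07). Gna14, a G protein subunit with 12 peaks, fell by 2.9 in females and by 1.09 in males (adjusted p 2.19e-08 and 0.000194).

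Most genes of the hedgehog pathway, in which the ligand relieves the block that patched receptors place on Smo, held a region. Of its 13 genes 11 held one, 54 peaks in all. Over all tested genes 41% held one, and 71.8% did among those of 50 to 100 kb. The median span of the list was 73.8 kb. At E16.5, 5 of the 13 were higher in males, against 14.1% of all tested genes, and 2 were higher in females, near the 13.2% of all tested genes, with a median log2 difference of -0.05 against 0.01 over all tested genes. Ptch1, the main receptor and a target of the pathway, held 4 intronic peaks. It measured 72.5, 68.6 and 88.7 CPM in E16.5 females and 423, 751 and 838 CPM in E16.5 males, which did not overlap (log2 -3.13, SE 0.234, adjusted p 4.5e-06). Hhip, a decoy that binds the ligand, held 1 peak and had a log2 difference of -5.31 (SE 0.188, adjusted p 4.14e-10).

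The Gli factors differed from one another. Gli2 and Gli3, with 12 and 8 peaks, had log2 differences of -0.05 and -0.05 at E16.5 (adjusted p 0.658 and 0.61). Gli1, whose promoter drives the Cre that marks these cells, held 2 peaks, both within 1 kb of another transcript start and shared with another row. It measured 54.0, 49.7 and 48.5 CPM in E16.5 females and 194, 211 and 220 CPM in E16.5 males, without overlap, a log2 difference of -2.04 (SE 0.0712, adjusted p 3.53e-11). Among co-receptors Boc (6 peaks) had a log2 difference of -0.395 and Cdon (3 peaks) of 0.65 (adjusted p 0.000504 and 3.35e-05). The female-higher calls of this list numbered 1 to 4 over the settings tried and the male-higher calls 5 in each.

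Nearly all hormone receptor genes held a region. Of 16 genes for nuclear receptors, 15 held one, 69 peaks in all, with a median span of 74.5 kb. The share was 41% over all tested genes and 71.8% over those of 50 to 100 kb. At E16.5, 7 were higher in females, against 13.2% of all tested genes, and 2 in males, near the 14.1% of all tested genes. The median log2 difference was 0.18. Esr1, the oestrogen receptor alpha, held 11 intronic peaks across 393.6 kb. Its libraries stood at 131, 128 and 130 CPM in E14.5 females and 99.8, 104 and 100 CPM in E14.5 males, then at 195, 199 and 193 CPM in E16.5 females and 80.4, 82.0 and 83.3 in E16.5 males. The 4 groups did not overlap. The log2 difference at E16.5 was 1.26 (SE 0.0516, adjusted p 1.35e-10). Pgr, the progesterone receptor with 2 peaks, measured 99.7, 98.8 and 99.6 CPM against 29.0, 22.6 and 21.7 at E16.5 (2.02, SE 0.156, adjusted p 6.57e-07).

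The retinoic acid receptors Rarb (5 peaks) and Rarg (3) were higher in females at E16.5 by 0.68 and 0.49 (adjusted p 4.11e-05 and 0.000115). The glucocorticoid receptor Nr3c1 (1 peak) was called higher in males (log2 -0.24, adjusted p 0.0468), a call lost under 10 of the other settings.

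Transcription factors of the tract were split between those with many regions and those with none. Of 47 genes 45 were tested and 28 held a peak, 239 peaks in all. Their median span was 33 kb, and 49.1% of all tested genes of 20 to 50 kb held a peak. Foxp1 (29), Nfia (25), Tcf4 (21) and Tshz2 (18) were among those with the most, though all 18 peaks of Tshz2 and 15 of Foxp1 also lie in another gene row. The short genes Tcf21, Emx2, Hand2 and Osr1, of 2.894 to 7.06 kb, held none. At E16.5, 15 of the 45 were higher in females, 10 of them holders, against 13.2% of all tested genes. In males 6 were higher, 4 of them holders, near the 14.1% of all tested genes. Wt1, a zinc finger factor of the urogenital ridge with 5 peaks, measured 169, 182 and 164 CPM in E16.5 females and 112, 94.6 and 99.8 in males, without overlap (0.75, SE 0.0738, adjusted p 1.54e-06). Runx1, with 11 peaks, fell with age by 1.39 in females and by 0.722 in males (adjusted p 4.47e-06 and 0.00283). Ebf1, with 8 peaks, rose by 1.68 and 1.51 (adjusted p 2.22e-08 and 9.1e-08). Zfpm2 held 11 peaks and lay between 53.2 and 88.3 CPM in every fetal library. Its change with age in males was -0.391 (adjusted p 0.0094), and in females -0.199 (adjusted p 0.126).

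Every axon guidance gene held a region. All 23 had at least 1, 217 peaks in all with a median of 8 and a median span of 206 kb. Of all tested genes over 200 kb, 97.1% held at least 1. At E16.5, 12 were higher in females and 6 higher in males, against 13.2% and 14.1% of all tested genes. Plxna4, a receptor of semaphorins with 8 peaks, was higher in females, at 115, 109 and 92.4 CPM against 32.8, 28.7 and 26.0 (1.86, SE 0.103, adjusted p 3.43e-09). Slit2, a repellent ligand with 5 peaks, stood at 762, 723 and 727 CPM against 329, 348 and 292 (1.19, SE 0.088, adjusted p 7.38e-08). Ntn1, which encodes netrin, had 9 peaks and was lower in females, at 77.2, 82.2 and 73.7 CPM against 135, 153 and 148 (-0.9, SE 0.067, adjusted p 7.38e-08). In none of the 3 did the sexes overlap.

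Smooth muscle genes were higher in males, with and without a region. Of 16 genes, 13 were higher in males at E16.5, against 14.1% of all tested genes, and 9 of the 13 held a peak. The male-higher count was 12 to 13 over the settings tried. Mylk, the kinase of myosin light chain, held 21 peaks and measured 380, 367 and 355 CPM in females and 552, 660 and 636 in males (-0.75, SE 0.0694, adjusted p 7.99e-07). Acta2, the smooth muscle actin, held 1 peak and measured 241, 245 and 339 CPM in females and 1240, 1930 and 2250 in males (-2.72, SE 0.249, adjusted p 2.66e-05). Cnn1, with no peak, measured 2.28, 3.23 and 4.55 CPM in females and 27.8, 53.4 and 65.0 in males (-3.87, SE 0.385, adjusted p 5.58e-05). The sexes did not overlap in any of them.

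Matrix and signalling genes were called in both directions. The median spans of the 2 lists were 79.3 and 56.7 kb. Of all tested genes 41% held a region, and of those of 50 to 100 kb 71.8% did. Of 28 matrix genes, 24 held a region, 123 peaks in all, and 9 were higher in females and 11 in males at E16.5, against 13.2% and 14.1% of all tested genes. With age, 21 of the 28 rose in females and 20 in males, where 21% and 13.1% of all tested genes rose. Of 42 genes of the Wnt, BMP, TGF-beta, FGF, IGF and PDGF pathways, 36 held a region, 268 peaks in all, and 14 were higher in each sex. Igf1, an insulin-like growth factor with 5 peaks, was higher in females by 1.02 (SE 0.0802, adjusted p 1.38e-07). Rspo2, which strengthens Wnt signals, had 3 peaks and was higher in females by 3.58 (SE 0.247, adjusted p 4.61e-08).

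Markers of epithelial, immune, neural and erythroid cells held few regions. Peaks lay in 3 of 13 epithelial, 1 of 6 immune, 1 of 7 tested neural and none of 5 tested erythroid genes, and in 6 of 8 endothelial genes, which were longer. Epithelial and immune markers had median spans of 7.79 and 15.7 kb. Their shares, 23.1% and 16.7%, were near the 18.4% of all tested genes under 20 kb that held a peak. Summed levels at E16.5 were 24.9 to 33.8 CPM in females and 34.9 to 41.6 CPM in males for epithelium, which did not overlap. They were 65.8 to 79.4 and 82.6 to 92.2 CPM for endothelium, also without overlap, and 27.7 to 71.4 and 12.8 to 46.4 CPM for immune cells, which overlapped. Single markers did not all follow these sums. Of 8 endothelial markers 2 were called higher in each sex, with a median log2 difference, female over male, of 0.397. Of 13 epithelial markers 1 was called higher in males and none in females, with a median of 0.137. Of the 6 immune markers, 3 were called higher in E16.5 females and none in males, with a median log2 difference of 1.93. Germ cell markers summed to 0.783 to 1.27 CPM in females and 1.92 to 2.52 in males, without overlap, and 2 of 3 tested were called higher in males. Erythroid markers summed to 12.9 to 24.4 and 5.39 to 8.66 CPM, without overlap and with no call among 5. Gonadal somatic markers summed to 59.5 to 65.6 CPM in females and 77.9 to 83.2 in males. A single E14.5 female library held erythroid markers at 885 CPM, where the 11 others held 4.85 to 24.4. The part of these cells in the sex differences was not tested.

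In the uterus the holders again differed more often. Of 6901 tested holders, 2149 (31.1%) differed between Amhr2+ and Gli1+ cells, against 23.9% of all 16195 genes and 18.5% without a peak. Amhr2+ cells had the higher level in 832 (12.1%, against 10.1%) and Gli1+ cells in 1317 (19.1%, against 13.7%). The count was 1229 without Amhr2+ replicate 1. The regions were mapped in fetal mesonephros, so their state in the uterus was not measured. Epha6 measured 1.06, 0.728 and 0.847 CPM in Amhr2+ cells and 3.93, 4.77 and 4.7 CPM in Gli1+ cells (log2 -2.34, SE 0.209, adjusted p 0.000175). Fam65b, which binds the GTPase RhoA and holds 8 peaks, measured 11, 13.4 and 4.98 CPM against 55.0, 53.4 and 58.4 (-2.49, SE 0.317, adjusted p 0.00282). Neither gene's libraries overlapped between the populations. Zbtb16 measured 8.63, 8.28 and 10.2 CPM against 9.68, 10.9 and 14.2 and did not pass (adjusted p 0.139).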

How the data were processed

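RNA-seq counts per gene and a list of ATAC-seq peak positions were used as the authors deposited them; the list holds positions with no value per sample. The submitters' processing notes name Bowtie 1.2, SAMtools 1.3.1, Picard, bedtools 2.24.0, MACS2 2.1.1, STAR 2.5, featureCounts and Subread 1.5.0-p1 and the build mm10, without roles. Per the labels' protocols, the kit for fetal RNA did not keep strand, the uterine kit did, ATAC-seq libraries used a Nextera kit, and RNA was purified with PicoPure; the strand setting of counting and the annotation version are not given in the sources used here.

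Peaks were classed by position, and midpoints were set on GENCODE vM21 features, which are on GRCm38 (mm10). Sequences were read from that genome. Letters were searched on both strands in 200 bases around each midpoint, and for the printed stretches in the whole peak. Windows near each other can overlap.

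Counts were tested with edgeR 4.0.16 in R 4.3.3: filterByExpr, TMM, a robust quasi-likelihood fit of group means over 12 fetal or 6 uterine libraries, with Benjamini-Hochberg adjustment over all tested genes and a threshold of 0.05. The standard error is the log2 difference divided by the root of the F statistic. On simulated counts the fetal fit recovered 99 of 100 genes changed 2-fold and 100 of 100 changed 4-fold, with 11 other calls in 17503 genes. The numbers were 98, 100 and 12 in 16021 for the uterine fit. Both simulations gave every gene the same spread and changed only genes with ample counts. They therefore do not give the power or the error rate for variable or low genes. Replicate numbers are taken from the sample titles. At E16.5 libraries of the same number deviated together between the sexes (correlations 0.115 to 0.396, each over the limit of 0.1), and no other contrast met that rule; the labels name no shared litter or day.

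Named genes were the 10 with most regions, the 10 densest with 5 or more peaks and at least 20 kb, the 3 with the largest difference in each direction of each fetal contrast (5 or more peaks, at least 10 CPM in the higher group, no overlap), the genes of the hedgehog, receptor and transcription factor lists, the 5 longest without a region and those of the 5 widest peaks, with up to 4 examples of other lists. Not every gene so named is described, and some are not reported here. Cnn1, Igf1, Rspo2 and the other list examples were picked after their values were seen. The regions, gene lists and letters were chosen with earlier results of these data known. Other normalizations, DESeq2 1.42.0, filters, subsets and limits of the peak rule were tried as alternatives.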

Additional observations from a re-analysis of the deposited data

Results flagged for a closer look

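The difference between females and males was tested for a change from E14.5 to E16.5 as an interaction over the 12 fetal libraries, with edgeR's quasi-likelihood test. Positive values mean that the balance moved toward females with age. It passed the threshold in 1175 of the 7323 tested genes with a peak inside them (16%), against 10% of all 17858 tested genes.

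Among the named genes with large changes, the interaction on the log2 scale was 4.46 for Slc26a7, 2.96 for Dpp10 and 2.46 for Epha6. It was -4.32 for Atp8a2, -2.81 for Nalcn and -2.49 for Myh11. Among receptors it was 0.905 for Esr1, 0.659 for Rarb and 0.251 for Thra. Among transcription factors it was 0.523 for Wt1, 0.379 for Prrx1 and 0.298 for Meis1. The calls of Thra (adjusted p 0.0495) and Meis1 (adjusted p 0.0397) were lost under 12 and 10 of the other settings. The causes of these differences were not tested.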

How the results depend on the processing

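Counts of called holders kept within 1.5 times the reported value under every other normalization, tool, filter, block and subset tried, and their leave-one-out ranges were 382 to 933 for sex at E14.5, 2149 to 3021 for sex at E16.5, 2700 to 3652 for age in females, 1993 to 2400 for age in males, 918 to 1572 for the interaction and 1229 to 1926 in the uterus. With the replicate number as a block, the counts were 969, 3141, 3082, 2040, 1565 and 2518 in that order, and 138 for male-higher genes with the steroid receptor letters; the block changed no count by over 1.5 times. Among the named genes, no direction reversed under an alternative. Limiting the peaks to those at least as wide as the median of the list gave 11748 peaks, a median width of 379 bases, 48.7% G or C, 86.1% in introns and the CTCF core in 5.75%. Peaks in introns made up 87.7% of those whole inside a span and 88.4% with starts excluded within 2 kb. Alternatives chosen after seeing the data left out 2 gene rows with spans over 2.5 Mb (28550 peaks) and peaks near any GENCODE start (25273). The peak list limits every statement on chromatin: it has no replicate, no height and no group, and its depth is not known. An interval on a share covers counting error only, and letters with under 100 matches are imprecise.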
